A study of Rattus norvegicus with 12 samples.

Results

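The genes examined here encode the inflammasome and the proteins that act through it, namely the sensors Nlrp3, Nlrc4, Nlrp6 and Aim2, the adaptor Pycard (ASC), the caspases Casp1, Casp4 and Casp12, the pore-forming gasdermin Gsdmd and the cytokine Il18. Members were found by gene symbol, and each of the 10 genes was listed in both deposited tables. Nlrp6 had 2 entries in each table, which gave 11 entries of 22132 in the control and adenine table and 11 of 32623 in the sham and UUO table. Symbols were the only identifiers used.

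The study compared a chemical and a surgical model of renal fibrosis in kidneys of wild-type (WT) male SD rats, which were 8 weeks old when bought. In the adenine group, adenine was given daily into the stomach at 220 mg/kg over 3 weeks, and the control group received saline. In the UUO group the left ureter was ligated (unilateral ureteral obstruction) and kidneys were taken at 2 weeks, while the sham group had surgery without ligation. Poly(A) RNA was sequenced from 3 different rats per group, 12 in all. The models differ in agent, duration and surgery, which cannot be told apart, and each change was therefore measured within its own table. Expression was deposited as FPKM, fragments scaled by transcript length and by mapped fragments, which carries no read counts, so the depth behind each value is unknown and precision rests on the spread between 3 rats.

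An inflammasome is a protein complex that assembles in the cytosol when a sensor meets a danger signal. Nlrp3 responds to membrane damage and ion loss, Nlrc4 to bacterial proteins delivered by Naip receptors, and Aim2 to double-stranded DNA. Sensors recruit pro-caspase-1, in most cases through Pycard, and active caspase-1 cleaves pro-IL-18, pro-IL-1β and gasdermin D, whose fragment opens pores in the plasma membrane (pyroptosis). Casp4, the rat counterpart of mouse caspase-11, detects cytosolic lipopolysaccharide and cleaves gasdermin D directly, whereas Casp12 is a caspase-1 relative linked to the endoplasmic reticulum. Crystals and obstruction are known triggers of this pathway in kidney, where macrophages hold much of the Nlrp3 and tubular cells much of the Il18.

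Casp1, Casp4 and Casp12 are neighbouring coding genes on rat chromosome 8 in the GRCr8 assembly of RefSeq, in that order and between Gria4 and Pdgfd. RefSeq promoter windows, 250 bases before to 50 bases after the start site, were matched for 7 of the 10 genes. Nlrc4, Casp4 and Gsdmd had no window and were not searched for motifs. Those of Casp1 (chr8:10872580-10872879, plus strand) and Casp12 (chr8:10926938-10927237, plus strand) are shown because both caspases rose in both models and their windows share a run of letters. Those of Nlrp3 (chr10:44827848-44828147, plus strand) and Nlrp6 (chr1:205434234-205434533, plus strand) are shown because these sensors moved in opposite directions. Capitals mark GAAANNGAAA (the core of an interferon-stimulated response element), GAGGAA (a PU.1-type ETS core) and TTCNNNGAA (a STAT element), on either strand and with no overlaps among the matches in these windows.
Casp1: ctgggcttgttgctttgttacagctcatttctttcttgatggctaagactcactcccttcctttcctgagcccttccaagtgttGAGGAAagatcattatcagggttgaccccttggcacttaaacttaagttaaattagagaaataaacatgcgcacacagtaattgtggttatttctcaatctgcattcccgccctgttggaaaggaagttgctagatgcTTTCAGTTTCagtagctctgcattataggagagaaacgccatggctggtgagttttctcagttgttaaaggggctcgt
Casp12: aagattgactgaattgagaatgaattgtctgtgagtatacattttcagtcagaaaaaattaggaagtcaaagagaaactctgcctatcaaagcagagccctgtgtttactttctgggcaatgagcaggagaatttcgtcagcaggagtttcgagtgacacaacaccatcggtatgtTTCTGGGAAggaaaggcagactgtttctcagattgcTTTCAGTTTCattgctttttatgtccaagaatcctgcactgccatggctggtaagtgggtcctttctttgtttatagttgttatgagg
Nlrp3: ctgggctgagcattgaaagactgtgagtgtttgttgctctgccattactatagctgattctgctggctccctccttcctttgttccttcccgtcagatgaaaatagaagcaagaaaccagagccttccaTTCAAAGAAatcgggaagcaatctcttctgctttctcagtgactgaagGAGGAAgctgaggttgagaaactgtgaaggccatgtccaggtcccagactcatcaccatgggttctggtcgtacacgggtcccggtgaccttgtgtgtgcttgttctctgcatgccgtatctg
Nlrp6: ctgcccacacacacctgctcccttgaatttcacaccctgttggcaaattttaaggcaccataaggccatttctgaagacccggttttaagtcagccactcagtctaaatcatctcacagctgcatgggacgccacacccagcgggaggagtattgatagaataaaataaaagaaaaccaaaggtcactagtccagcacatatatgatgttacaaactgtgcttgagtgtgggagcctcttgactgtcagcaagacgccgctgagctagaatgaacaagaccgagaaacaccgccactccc

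The longest run common to the windows of Casp1 and Casp12 was TGCTTTCAGTTTCA, 14 bases that begin 31 bases before the Casp1 start site and 41 bases before that of Casp12. The run was present in 3 of 33469 promoter windows, and the third belonged to LOC102557277. Because the run was chosen as shared by Casp1 and Casp12, their windows hold it by construction. Why these neighbouring, related genes share it was not tested. It contains the match to GAAANNGAAA, a motif found in 3.92% of all windows and searched for after the sequences had been seen. GAGGAA, found in 27.6% of all windows, was present in those of Nlrp3, Aim2 and Casp1. TTCNNNGAA, found in 8.87%, was present in those of Nlrp3 and Casp12. The windows of Nlrp6, Pycard and Il18 held no match to any of these motifs, nor did any member window hold GAANNGAAA, which 8.54% of all windows hold. A match describes letters only and does not show that a factor binds.

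In saline-treated control rats Nlrp6 was the most abundant member per transcript length. Its entries averaged 17.1 ± 0.833 and 13.6 ± 0.799 FPKM (SD, n = 3), above Casp1 at 5.27 ± 0.423, Gsdmd at 5.13 ± 0.713, Il18 at 4.72 ± 1.87, Pycard at 4.63 ± 0.284 and Casp4 at 4.19 ± 0.639 FPKM. From Casp1 to Casp4, each gene overlapped the next in this order. The scarcest members were Aim2, Casp12, Nlrp3 and Nlrc4, from 1.02 ± 0.234 down to 0.436 ± 0.0825 FPKM, and again each overlapped the next. In adenine kidneys Pycard led at 34.7 ± 3.47 FPKM, separated from Casp1 at 21.2 ± 4.77, and Nlrp6 came last. In UUO kidneys Pycard at 31.4 ± 4.65, Gsdmd at 30.3 ± 7.29, Casp1 at 24.6 ± 2.37 and Casp4 at 22.7 ± 1.62 FPKM each overlapped the next, and the rank of Nlrp6, mostly listed at 0.0001 there, is not given.

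**Figure D1:**
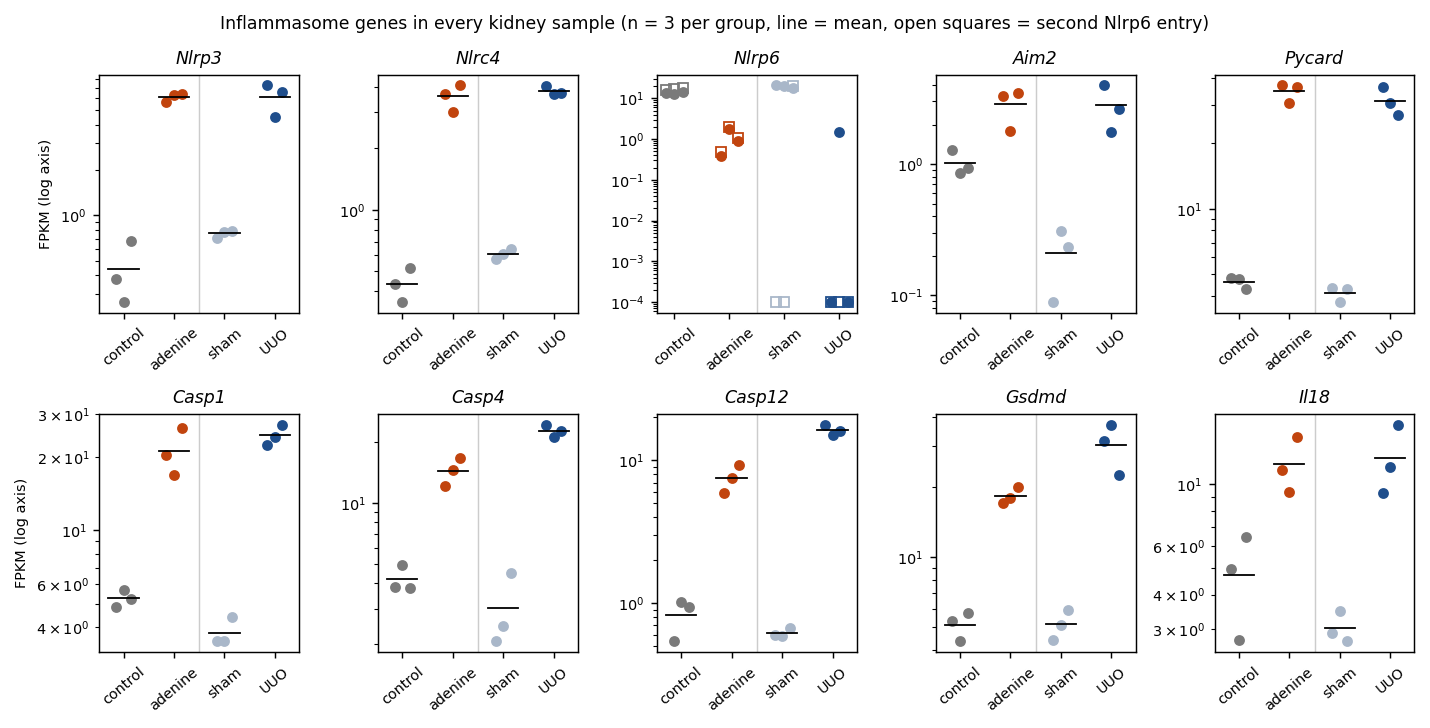
FPKM of the 10 inflammasome genes on a logarithmic axis in each of the 12 kidneys, with the group mean as a line and the second Nlrp6 entry as open squares. Nlrp6 is the only gene whose treated samples lie below its controls, and in the sham and UUO table several of its values are listed at 0.0001.

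All 11 entries were tested in the adenine model, by limma on log2(FPKM + 0.1) with Benjamini-Hochberg adjustment over 15029 entries. A gene rose or fell at an adjusted p under 0.05, and was a DEG when its log2 fold change was also at least 2 in size. The genes rose in 9 entries, against 39.6% of all entries tested, and fell in 2, both of Nlrp6, against 19.9%. Higher DEGs were Nlrp3, Nlrc4, Pycard and Casp12 (10.7% of all entries were higher DEGs) and both Nlrp6 entries were lower DEGs (5.03%). The higher DEGs numbered 7 when samples were scaled to equal total FPKM, as Casp1 (2.24), Casp4 (2.02) and Gsdmd (2.09) joined them, and 3 when 1 was added to FPKM, as Nlrc4 (1.67) dropped out. Of the 10 entries tested in the UUO model, among 15043, 9 rose against 56.1% of all entries and 1, of Nlrp6, fell against 14.4%. There 8 genes were higher DEGs against 13.2%, and Il18 was the riser below the fold threshold. With 1 added to FPKM they numbered 5, as Nlrp3 (1.99), Nlrc4 (1.58) and Aim2 (1.61) dropped out. Lower DEGs made up 4.21% of all entries. The Nlrp6 entry met that rule partly through values listed at 0.0001, which may be failed estimates. Its UUO replicate 2 was listed at 1.51 FPKM, against 20.7, 19.7 and 17.7 in sham rats.

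The median log2 fold change of the 9 genes other than Nlrp6 was 1.97 with adenine and 2.82 with UUO, beside 0.30 and 0.62 over all entries tested. Median-of-ratios scaling moves those medians of all entries to 0.01 and 0.03. It changes the higher and lower DEGs of all genes from 1604 and 756 to 1311 and 957 with adenine, and from 1980 and 633 to 1248 and 955 with UUO. Every member kept its direction and its adjusted p under 0.05 with this scaling, and Nlrc4 at 1.91 and Gsdmd at 1.92 came below the DEG threshold in the UUO model.

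Control and treated samples did not overlap in any of the 11 entries of the adenine model. They did not overlap in 10 of 11 in the UUO model. Over all tested entries, treated samples lay entirely above their controls in 45.0% and below in 23.0% for adenine, and in 60.0% and 15.7% for UUO. A permutation of 3 against 3 samples cannot go below p = 0.1. Nlrp3 and Nlrc4 in the adenine model and Aim2 in the UUO model reached the minimum of 0.5 FPKM in 3 samples only through the treated group. The tested Nlrp6 entries reached it only through the control or sham group.

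Among the sensors, Nlrp3 had 0.378, 0.266 and 0.678 FPKM in the control rats and 5.66, 6.25 and 6.33 in the adenine rats. All adenine samples lay close together and far above the controls, a 13.8-fold rise of the mean and a log2 fold change of 3.58 ± 0.30 (SE), with a limma adjusted p of 0.000145. In the surgical model it had 0.712, 0.781 and 0.787 FPKM in sham rats and 7.27, 4.51 and 6.53 in UUO rats. The UUO samples were more spread but again well apart from sham, with a log2 fold change of 2.82 ± 0.22 and a limma adjusted p of 7.11e-05.

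Nlrc4 went from 0.435, 0.354 and 0.519 FPKM in control rats to 3.68, 3.02 and 4.06 in adenine rats. The rise was 8.22-fold, with a log2 fold change of 2.78 ± 0.23 and a limma adjusted p of 0.000134. Sham rats had 0.578, 0.607 and 0.644 FPKM and UUO rats 4.02, 3.70 and 3.74, values that hardly varied within a group. The rise there was 6.26-fold, with a log2 fold change of 2.47 ± 0.18 and a limma adjusted p of 5.17e-05.

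For Aim2, control rats had 1.29, 0.849 and 0.930 FPKM and adenine rats 3.33, 1.79 and 3.50, so that the lowest adenine sample was close to the highest control. The log2 fold change was 1.37 ± 0.31, with a limma adjusted p of 0.00883, and it fell to 0.83 with an adjusted p of 0.0523 after quantile normalization. Sham rats had 0.0887, 0.309 and 0.232 FPKM and UUO rats 3.98, 1.77 and 2.64. The log2 fold change of 3.22 ± 0.42 (limma adjusted p = 0.000542) starts from sham values near the 0.1 that was added to each FPKM, and was 1.61 when 1 was added instead.

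Nlrp6, a sensor best known in epithelia, moved the other way. Its first entry had 13.6, 12.8 and 14.4 FPKM in control rats and 0.393, 1.74 and 0.883 in adenine rats, and its second entry 16.3, 17.1 and 18.0 against 0.476, 1.95 and 1.06. In each of the 6 samples the second entry was 1.12 to 1.33 times the first. Mean FPKM was 13.6-fold and 14.8-fold lower with adenine, and log2 fold changes were -3.83 ± 0.45 and -3.96 ± 0.43 with limma adjusted p of 0.000517 and 0.000383.

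In the other table the first Nlrp6 entry was listed at 20.7, 19.7 and 17.7 FPKM in sham rats and at 0.0001, 1.51 and 0.0001 in UUO rats. The second entry was listed at 0.0001 in every sample but sham replicate 3, at 19.9, and was not tested. The value 0.0001 is the lowest of that table and can be a failed estimate. Of 8963 entries that reached 5 FPKM in a sham sample, 54 were at 0.0001 in another sham sample, among them Hdac6, and the same held for 56 of 10690 in UUO, among them Myh9, a non-muscle myosin that cells use generally. For this reason no fold change of Nlrp6 is given for UUO. The first entry was lower in 3 of 3 UUO samples, with a limma adjusted p of 0.00164 that rests on those listed values.

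The adaptor Pycard rose with the smallest standard error of all members in the adenine model. It went from 4.84, 4.75 and 4.31 FPKM in control rats to 37.0, 30.7 and 36.4 in adenine rats, a log2 fold change of 2.88 ± 0.12 with a limma adjusted p of 2.51e-05. It went from 4.31, 3.73 and 4.27 in sham rats to 36.3, 30.8 and 27.0 in UUO rats, a log2 fold change of 2.90 ± 0.14 with a limma adjusted p of 1.49e-05. Mean FPKM was thus 7.49-fold and 7.65-fold higher.

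Of the caspases, Casp1 had 4.86, 5.70 and 5.23 FPKM in control rats and 20.4, 16.9 and 26.3 in adenine rats. The log2 fold change of 1.97 ± 0.18 (limma adjusted p = 0.000202) was just under the DEG threshold, and it passed without control replicate 2 or without adenine replicate 2. With UUO it went from 3.50, 3.49 and 4.41 to 22.5, 24.2 and 27.2 FPKM, a log2 fold change of 2.67 ± 0.14 with a limma adjusted p of 1.85e-05.

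Casp4 had 3.86, 4.93 and 3.79 FPKM in control rats and 12.04, 14.6 and 16.6 in adenine rats, with a log2 fold change of 1.76 ± 0.17 and a limma adjusted p of 0.000267. Sham rats had 2.07, 2.47 and 4.52 FPKM and UUO rats 24.3, 21.1 and 22.6. Sham replicate 3 was about level with the controls of the other table while the other two were lower, and the log2 fold change was 2.94 ± 0.28 with a limma adjusted p of 0.000135.

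Casp12 rose most of the caspases in both models. It went from 0.538, 1.01 and 0.934 FPKM in control rats to 5.94, 7.47 and 9.35 in adenine rats, which was 9.16-fold, with a log2 fold change of 3.07 ± 0.28 and a limma adjusted p of 0.00021. It went from 0.598, 0.588 and 0.664 in sham rats to 17.8, 15.0 and 16.1 in UUO rats, which was 26.4-fold, with a log2 fold change of 4.51 ± 0.15 and a limma adjusted p of 6.46e-06. This was the largest log2 fold change of the 9 rising members in the UUO model. The 3 caspases are related genes, and how fragments that match more than 1 of them were counted is not given in the sources used here.

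Gsdmd, the substrate through which caspase-1 and Casp4 open the membrane, had 5.32, 4.34 and 5.73 FPKM in control rats and 17.0, 17.8 and 19.9 in adenine rats. Its log2 fold change was 1.82 ± 0.14 with a limma adjusted p of 0.000119. Sham rats had 4.39, 5.12 and 5.92 FPKM and UUO rats 31.3, 37.0 and 22.5. The UUO samples were widely spread but all above sham, and the log2 fold change was 2.51 ± 0.21 with a limma adjusted p of 8.09e-05.

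Il18 rose least among the rising members in the adenine model together with Aim2. Control rats had 4.96, 2.75 and 6.46 FPKM and adenine rats 11.2, 9.40 and 14.9, with a log2 fold change of 1.36 ± 0.33 and a limma adjusted p of 0.011. The control spread was wide, and replicate 2 was the low sample. Sham rats had 2.91, 3.50 and 2.71 FPKM and UUO rats 9.29, 11.6 and 16.4, with a log2 fold change of 1.97 ± 0.23 and a limma adjusted p of 0.000319. It passed the DEG threshold without sham replicate 2 or without UUO replicate 1.

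**Figure D2:**
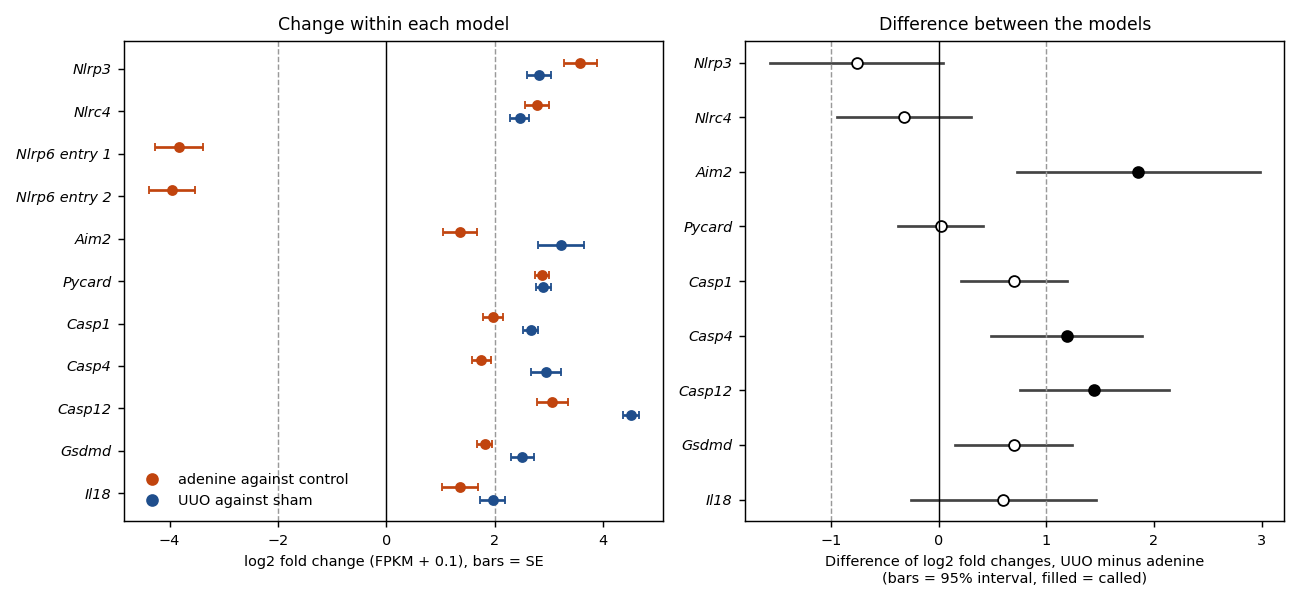
Left, log2 fold change of FPKM + 0.1 with its SE for each entry within each model, with dashed lines at the DEG threshold of 2 and with Nlrp6 left out for UUO. Right, the difference of the log2 fold changes (UUO minus adenine) with its 95% interval for the 9 genes tested in both tables and listed once, where filled points (Aim2, Casp4 and Casp12) passed at a difference of at least 1.

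The change with UUO was set against the change with adenine for the 9 members listed once. The difference of the log2 fold changes was divided by its standard error and adjusted over 13486 genes, and a gene was called at an adjusted p under 0.05 and a difference of at least 1, which 12.8% of all genes met in either direction. Casp12 rose more in the UUO model by 1.45 ± 0.32 (95% interval 0.76 to 2.14, adjusted p = 0.00605 from the limma fits). Casp4 rose more by 1.19 ± 0.33 (0.48 to 1.89, adjusted p = 0.0176 from the limma fits) and Aim2 by 1.86 ± 0.52 (0.73 to 2.98, adjusted p = 0.0199 from the limma fits). The median difference over all genes was 0.28 in the same direction.

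These calls differed in firmness. With median-of-ratios scaling the difference of Casp4 was 0.89 with an adjusted p of 0.0663 from the limma fits, and without sham replicate 1 it was 0.97, below the size required. The difference of Aim2 was no longer called without UUO replicate 1 (1.57, adjusted p = 0.0596 from the limma fits) or when 1 was added to FPKM (0.70, adjusted p = 0.101). That of Casp12 passed under every alternative, from 1.16 to 1.70.

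Casp1 differed by 0.70 (0.21 to 1.19, adjusted p = 0.0361 from the limma fits), which is under the size required. Gsdmd differed by 0.70 (0.16 to 1.24, adjusted p = 0.0547 from the limma fits) and Il18 by 0.60 (-0.26 to 1.47, adjusted p = 0.281). The differences of Nlrp3 and Nlrc4 were negative, at -0.76 (-1.57 to 0.05) and -0.32 (-0.94 to 0.31), and were not called. Without control replicate 3 that of Nlrp3 became -1.06 with an adjusted p of 0.0312 from the limma fits. Pycard differed by 0.02, with an interval from -0.37 to 0.42.

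Ratios of 2 genes within a sample were taken as log2 ratios of FPKM + 0.1 for 8 pairs. Scaling between samples enters them only through the added constant, which weighs on the scarce genes Nlrp3, Nlrc4, Casp12 and Gsdme, and the change of Nlrp3 to Pycard with adenine was 0.71 with 0.1 added and -0.36 with 1 added. No ratio could reach an adjusted p under 0.05 with 3 samples against 3. In adenine rats 4 ratios did not overlap with the controls, each with an exact permutation p of 0.1 and 0.2 after adjustment over the 8 ratios. In UUO rats this held for 2 ratios, each with an exact permutation p of 0.1 and 0.4 after adjustment.

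Il18bp, the secreted protein that binds and neutralizes IL-18, stood at 5.00 ± 0.406 FPKM in control rats and 83.1 ± 17.2 in adenine rats, and at 3.90 ± 0.766 in sham rats and 16.2 ± 3.37 in UUO rats. The log2 ratio of Il18 to Il18bp was 0.11, -0.95 and 0.35 in control rats and -3.18, -2.87 and -2.38 in adenine rats. Transcripts of cytokine and inhibitor were thus near parity in control kidneys, with a ratio of 0.895 on the linear scale, and at 0.143 in adenine kidneys. In sham rats the log2 ratio was -0.69, -0.07 and -0.26 and in UUO rats -0.90, -0.69 and 0.40, which overlap. Il18bp itself rose less with UUO than with adenine, by -1.99 ± 0.27 (adjusted p = 0.000381 from the limma fits). The change of the ratio differed between the models by 2.59. An exact permutation test over 400 splits gave p = 0.06, and 0.427 after adjustment over the 8 ratios. This test was chosen after the ratios had been seen. Its splits exchange labels within each model, so it assumes no change in either and cannot decide whether the changes were equal.

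The ratio of Casp12 to Casp1 was higher in treated rats in both models. Their log2 ratio went from -2.57 ± 0.34 in control rats to -1.47 ± 0.30 in adenine rats and from -2.44 ± 0.11 in sham rats to -0.59 ± 0.22 in UUO rats, with no overlap in either model (SD, n = 3). The change of 1.10 with adenine was 0.42 with 1 added to FPKM, and that of 1.85 with UUO was 1.00. Gsdmd gained on Gsdme, another pore-forming gasdermin, from 1.07 ± 0.24 to 3.83 ± 0.64 with adenine and from 0.44 ± 0.37 to 4.34 ± 0.39 with UUO, again with no overlap. Gsdme fell with UUO (log2 fold change -1.39 ± 0.24, limma adjusted p = 0.00185) and stood at -0.94 ± 0.38 with adenine (limma adjusted p = 0.0709). Nlrc4 and Nlrp3 were near parity in control rats, at a log2 ratio of 0.05 ± 0.34, and Nlrc4 was behind in adenine rats at -0.75 ± 0.24, without overlap. The UUO and sham values of that ratio overlapped, as did those of Casp4 to Casp1, Gsdmd to Casp1, Nlrp3 to Pycard and Il18 to Il1b in both models.

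**Figure D3:**
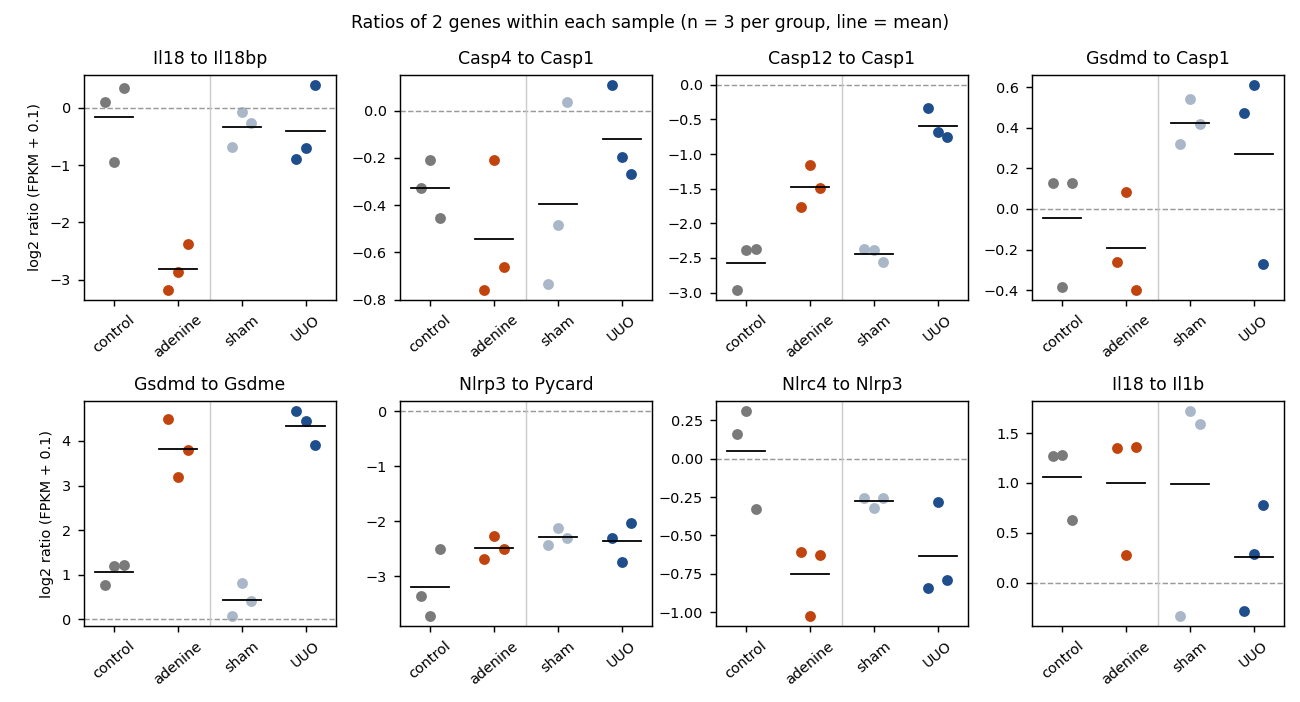
Log2 ratios of FPKM + 0.1 for 8 pairs of genes in each of the 12 kidneys, with the group mean as a line and parity dashed. Il18 to Il18bp drops to between -3.18 and -2.38 in adenine rats and overlaps with sham in UUO rats, while Casp12 to Casp1 and Gsdmd to Gsdme are separated in both models.

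Other genes of the pathway were taken from 6 lists of 79 symbols, older names of the same genes included. Of 56 tested in the adenine model 46 rose, 3 fell and 7 did not pass, and of 57 tested in the UUO model 48 rose, 3 fell and 6 did not pass, beside the shares of all entries given above. Genes that were low in control or sham rats could enter the test only through treated rats, which tilts these counts towards rises. The lists were written with results of these data known.

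Other NLR genes rose in 6 of 7 tested with adenine and 7 of 8 with UUO, with median log2 fold changes of 2.39 and 1.92. The tested genes were part of 13 and 16 listed. Naip2 and Nod2 were below 0.5 FPKM in every control and sham rat and entered the test only through treated rats. Counts and medians of this list are therefore tilted towards rises by the filter. The largest changes with adenine were those of Naip2, which presents bacterial ligands to Nlrc4 (3.55 ± 0.30), Nlrp1a (2.53 ± 0.26) and Nod2, a muramyl dipeptide sensor (2.44 ± 0.29). With UUO they were those of Nlrc5 and Ciita, the transactivators of MHC class I and class II genes (3.47 ± 0.23 and 2.61 ± 0.28), and again Nlrp1a (2.22 ± 0.23).

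Among triggers and regulators, 15 of 17 rose and 1 fell with adenine, and 16 of 17 rose with UUO. The gene that fell was Brcc3, a deubiquitinase of Nlrp3, named after its value was seen (-1.43 ± 0.13). P2rx7, the ATP-gated channel upstream of Nlrp3 (4.28 ± 0.54), Tnfaip3, the inhibitor of NF-κB also called A20 (4.12 ± 0.26), and Sting1, the adaptor for cytosolic DNA (3.80 ± 0.19), led with adenine. Sting1 is listed as Tmem173 in the surgical table, where it rose by 2.92 ± 0.17. With UUO the leaders were Gbp2 (4.06 ± 0.23) and Gbp5 (3.37 ± 0.33), guanylate-binding proteins that expose lipopolysaccharide to caspase-11, and Zbp1, a sensor of Z-form nucleic acid (4.03 ± 0.48). Zbp1 and Gbp2 rose more with UUO than with adenine, by 2.80 and 1.51 (adjusted p = 0.00645 and 0.021 from the limma fits), and P2rx7 rose less, by -2.26 (adjusted p = 0.0218).

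Other caspases rose in 4 of 6 tested with adenine and 5 of 6 with UUO. Casp8, which can cleave gasdermin D and which starts apoptosis, led with 1.49 ± 0.13 and 2.65 ± 0.17, and rose more with UUO by 1.16 (adjusted p = 0.00231 from the limma fits). Casp2 rose by 1.07 ± 0.14 with adenine. Casp6 in the surgical table was listed at 0.0001 in sham replicate 2 and UUO replicates 1 and 2, and at 7.41, 6.07 and 10.5 FPKM in the other samples, so it is given no fold change.

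Of the remaining gasdermin list, 3 genes were tested. Ninj1, which ruptures the membrane after gasdermin pores form, rose in both models (1.23 ± 0.13 and 0.86 ± 0.11), and Pjvk, a gasdermin relative, fell in both (-2.75 ± 0.29 and -2.30 ± 0.27). Gsdme, described above with its ratio, fell with UUO alone by the test, and its change did not pass a test of difference between the models (-0.45, adjusted p = 0.487 from the limma fits).

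IL-1 and IL-18 ligands, receptors and inhibitors rose in 9 of 11 tested in both models, and the single gene that fell in each was Sigirr, an inhibitory receptor of the family, named after its value was seen (-2.02 ± 0.14 and -0.85 ± 0.10). Il1rn, the secreted antagonist of the IL-1 receptor, went from 0.847 ± 0.151 to 358 ± 118 FPKM with adenine (8.51 ± 0.27) and from 0.967 ± 0.130 to 12.7 ± 4.31 with UUO (3.53 ± 0.27). This difference between the models was -4.99 ± 0.38 (adjusted p = 7.94e-06 from the limma fits). Il1b rose by 1.43 ± 0.47 and 2.70 ± 0.51, and Il1r2, a decoy receptor for IL-1, by 3.72 ± 0.43 and 3.21 ± 0.61. Il1rl1, the IL-33 receptor, was among the leaders with UUO (3.03 ± 0.24).

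Priming genes, which act through Toll-like receptors and NF-κB to raise inflammasome transcripts, rose in 11 of 12 tested with adenine and 10 of 12 with UUO, with median log2 fold changes of 2.09 and 2.20. Cd14, the lipopolysaccharide co-receptor, rose by 5.28 ± 0.25 and 3.30 ± 0.26, a difference of -1.98 (adjusted p = 0.00217 from the limma fits). Tlr2 rose by 3.16 ± 0.15 with adenine and Irf1 by 3.34 ± 0.16 with UUO. Irf8, a factor of monocytes and dendritic cells, rose by 3.13 ± 0.19 and 3.47 ± 0.13.

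**Figure D4:**
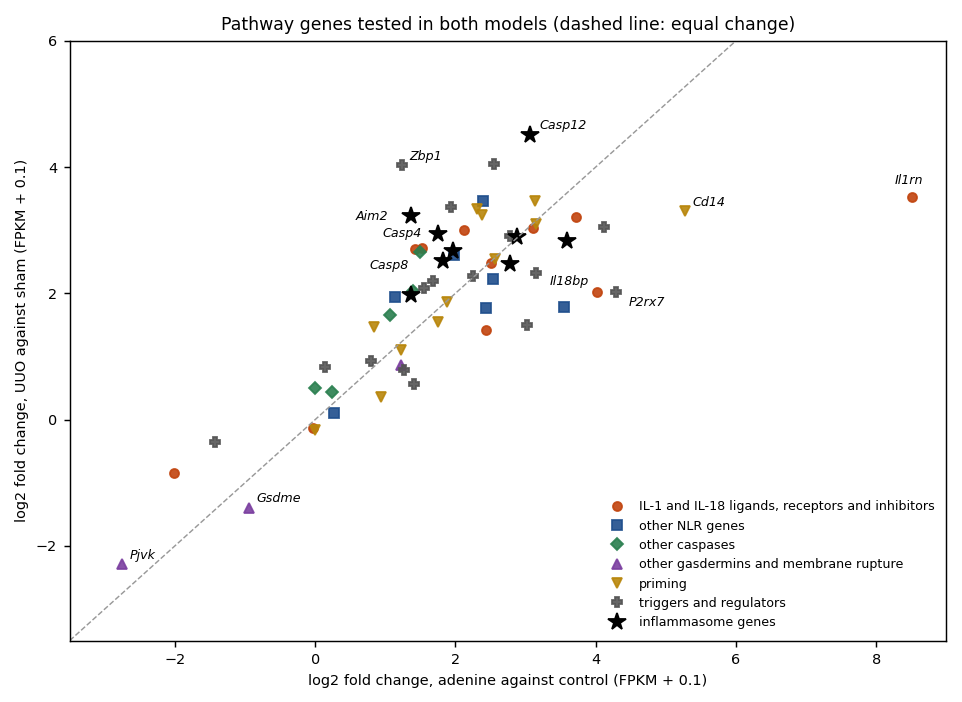
Log2 fold change of FPKM + 0.1 in the adenine model (horizontal) against the UUO model (vertical) for pathway genes tested in both, by list, with inflammasome members as stars and Casp6 left out. Il1rn, Cd14, P2rx7 and Il18bp lie below the dashed line of equal change, and Zbp1, Aim2, Casp4, Casp8 and Casp12 lie above it.

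Markers of other cell types moved with the groups. In bulk kidney, more cells of a type and more RNA per cell cannot be told apart. All 6 leukocyte markers rose in both models, led in level by Tyrobp and Arhgdib, and their summed FPKM went from between 56.6 and 100.4 in control rats to between 655 and 1007 in adenine rats, and from between 76.9 and 87.3 in sham rats to between 504 and 592 in UUO rats. All 11 macrophage markers rose in both models, with sums of 211 to 270 and 7255 to 13740 in control and adenine rats, and of 237 to 362 and 1976 to 2941 in sham and UUO rats. Lyz2 and C1qa were the most abundant of them. Some of the other macrophage markers reached the FPKM minimum of the test only through treated rats. All 6 T cell markers rose in both models as well. Cd4 made up most of their sum in adenine rats, at 94.1 ± 12.9 FPKM beside sums of 115 to 123. It was a large part in UUO rats too, at 95.3 ± 24.2 FPKM beside sums of 121 to 263. It rose by 4.31 with adenine and the other T cell markers by 1.49 to 2.23. With UUO it rose by 3.12 and the others by 3.06 to 3.50.

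Neutrophil markers rose in 3 of 3 tested of 6 with adenine and 4 of 4 with UUO, to summed levels of 14.1 to 26.5 and 6.91 to 38.0 FPKM. Some tested markers lay below the FPKM minimum in every control or sham rat and entered the test only through treated rats. S100a8, for instance, was at 0.0994, 0.402 and 0.0 FPKM in control rats. The filter thus tilts these counts towards rises, and they cannot show how many markers rose. Elane was listed at 0.0001 in all sham and UUO samples, and Mpo in all sham samples. B and plasma cell markers rose in 1 of 3 and 3 of 4 tested, beside 39.6% and 56.1% of all entries, to sums of 18.9 to 48.2 and 22.2 to 72.6 FPKM. The same tilt applies to their count with UUO, where Cd79b was at 0.244, 0.335 and 0.323 FPKM in sham rats. All 5 myofibroblast markers rose in both models, with sums of 301 to 322 in adenine rats and 779 to 1811 in UUO rats against 50.3 to 102 in both kinds of control. Not every one of them reached the FPKM minimum in a sham rat.

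Many markers of the nephron fell, and none of those that passed the test rose. Proximal tubule markers, led by Slc34a1, summed to between 739 and 1665 FPKM in control rats and 48.0 and 283 in adenine rats, and 3 of 6 fell. In the surgical table they summed to between 1056 and 1536 in sham rats and 93.3 and 258 in UUO rats, and 4 of 6 fell. All 4 thick limb markers, led by Umod, and all 5 intercalated cell markers fell in both models, as did 3 and then 6 of 6 markers of distal tubule and collecting duct. Podocyte markers fell in 1 of 4 in each model, beside 19.9% and 14.4% of all entries, and endothelial markers rose in 2 of 3 tested in each, beside 39.6% and 56.1%, which is near the background for podocytes and for endothelium with UUO. The part of the cell types in the changes of the inflammasome genes was not tested.

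Control replicate 2 stood apart from its group, with podocyte markers at a sum of 31.2 FPKM against 143 and 199.5 in the other controls. Its distal tubule and collecting duct markers summed to 271 against 918 and 672. Not all of that list was low in it. Calb1 was at 27.5 FPKM against 407 and 190, and Hsd11b2 at 90.6 against 201 and 185. Aqp2, named after its value was seen, was at 68.5 against 58.0 and 80.1. Without control replicate 2 every member kept its direction and its adjusted p under 0.05 within the adenine model, and Casp1 at 2.03 passed the DEG threshold. It was also the low control sample for Il18, whose log2 fold change was 1.03 without it. Adenine replicate 2 stood apart the other way. Its podocyte markers summed to 60.3 FPKM against 23.6 and 28.1, and its distal tubule and collecting duct markers to 368 against 209.5 and 131. Both sums lay above those of control replicate 2. Its proximal tubule markers summed to 283 against 48.0 and 122.5.

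**Figure D5:**
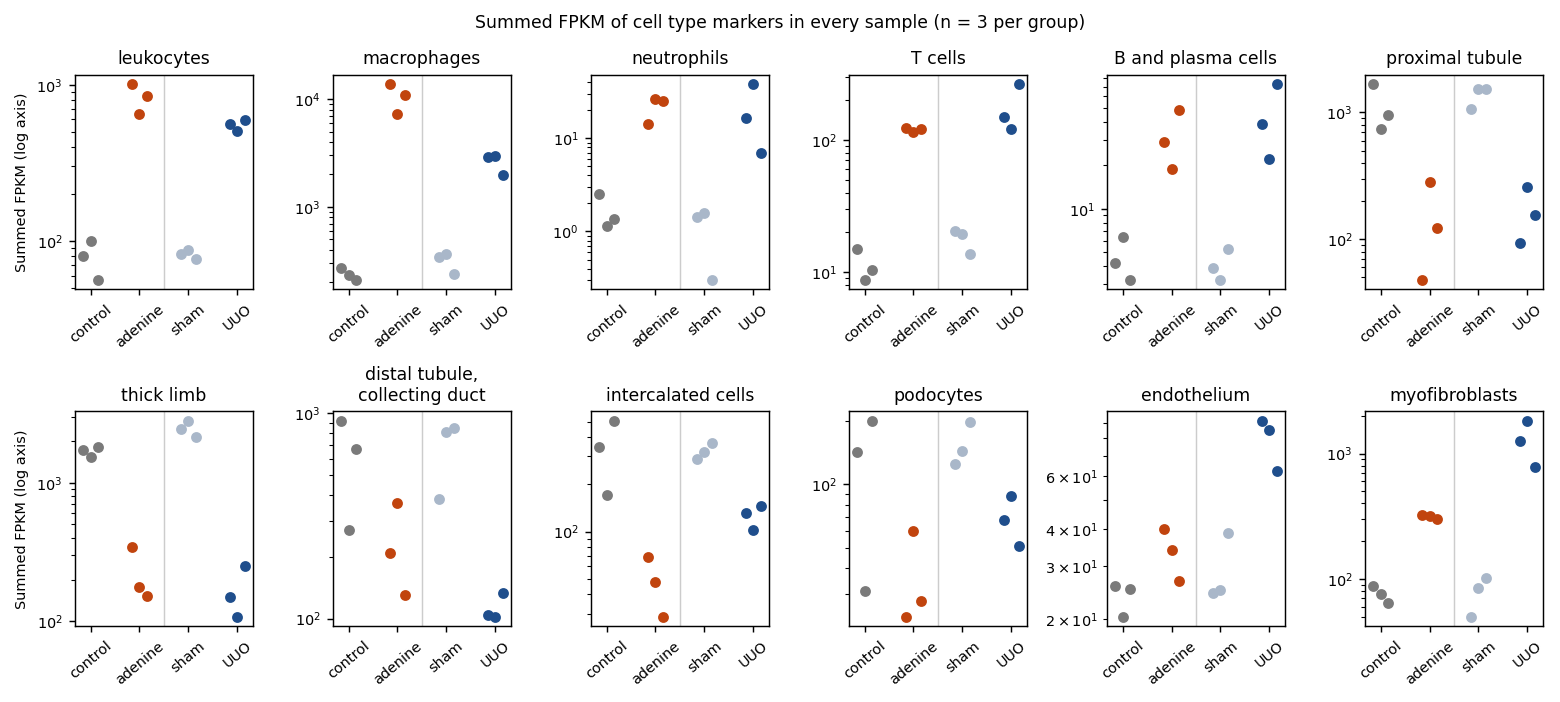
Summed FPKM of 12 lists of cell type markers on a logarithmic axis in each of the 12 kidneys. Leukocyte, macrophage, T cell and myofibroblast sums of treated kidneys lie above all their controls, thick limb and proximal tubule sums lie below, and control replicate 2 is low for podocytes.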

How the data were processed

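RNA of 12 rat kidneys in 4 groups was measured by poly(A) sequencing of stranded (dUTP) paired-end libraries. The authors trimmed reads, mapped them, assembled transcripts and deposited FPKM values per gene, in 1 table per model. The submitters' processing notes name cutadapt 1.9, HISAT2 2.0.4, StringTie 1.3.4d, edgeR and DESeq2; the genome build is not given in the sources used here. FPKM keeps no counts, so no count test was run, and too few low values shared a ratio between samples to give relative depth (0.238% to 1.96% of genes). The precision is therefore that of 3 rats.

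The members and the gene lists were chosen with earlier results of these data known. Each table was fitted alone with limma 3.58.1 (lmFit, eBayes with trend) in R 4.3.3 on log2(FPKM + 0.1), for entries that reached 0.5 FPKM in 3 or more of their 6 samples. Fold changes are on that scale, which understates changes of low genes. Differences between models, ratios and exact two-sided permutation tests used Python 3.11.15 with scipy 1.17.1. The fits were tested on simulated data. Named genes are all members, at most 3 genes per pathway list and model by size of log2 fold change, genes of the ratios, and at most 2 markers per list by FPKM. A gene that this rule takes in is not reported here by name. Promoters came from RefSeq (GRCr8). The main fits did not pair samples by replicate number. For adenine, deviations of control and treated samples with the same number correlated negatively, at -0.12 to -0.05. For UUO these correlations were 0.05 to 0.11, each above those of samples with different numbers (-0.078 to 0.016). Whether the UUO numbers mark pairs was not settled. Alternatives changed the pseudocount, filter, scaling, variance trend, replicate block and samples.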

Additional observations from a re-analysis of the deposited data

Results flagged for a closer look

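The changes of 3 genes differed between the models by a test of the difference itself. The log2 fold change was larger with UUO than with adenine by 1.86 for Aim2, by 1.19 for Casp4 and by 1.45 for Casp12. In level, Aim2 was at 2.87 ± 0.944 FPKM in adenine rats and 2.80 ± 1.11 in UUO rats, while its control and sham rats were at 1.02 ± 0.234 and 0.210 ± 0.112 FPKM. Casp4 and Casp12 were at 14.4 ± 2.28 and 7.59 ± 1.71 FPKM in adenine rats and at 22.7 ± 1.62 and 16.3 ± 1.42 in UUO rats (SD, n = 3), with lower means in sham than in control rats as well. These levels come from separate tables and were not tested against each other.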

How the results depend on the processing

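The counts of members that rose or fell stayed within 1.5 times under all alternatives tried. Higher DEGs moved further, from 4 to 7 with adenine when FPKM was rescaled to the same sum and from 8 to 5 with UUO at a pseudocount of 1, since several members lie near the fold threshold. Within a model, the only member to lose its adjusted p under 0.05 was Aim2 with adenine after quantile normalization. Of the called differences between the models, 1 remained called after quantile normalization, that of Casp12. The difference of Pycard changed sign but was never called: -0.0029 at a pseudocount of 1, -0.28 with median-of-ratios scaling, -0.32 with quantile normalization, -0.024 with FPKM rescaled to the same sum, and -0.087 to 0.12 when each sample was left out in turn. With a pseudocount of 1, the number of ratios whose UUO and sham samples did not overlap was 4 instead of 2. The causes were not tested. With the replicate block, 9 entries rose and 2 fell with adenine (6 DEGs), 9 rose and 1 fell with UUO (9 DEGs) and 3 differences were called, and no call of a member changed. In the UUO table every sample correlated best with the sample of its own number, and in the adenine table none did. The read depth behind the FPKM values is unknown, so a low value such as that of Aim2 in sham rats has no counting error, and 0.0001 cannot be told apart from a failed estimate.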
